A study of Mus musculus with 6 samples.

Results

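The regions described here are sites in macrophages where the AP-1 subunit JUNB had a peak before interleukin 4 (IL-4) and none 1 h after it, while C/EBPα and IRF8 had a peak in both conditions. They were chosen by the presence or absence of peaks in chromatin immunoprecipitation sequencing (ChIP-seq). Overlapping peaks of the 6 lists, with at least 1 bp in common, were joined, and 1270 of the 60856 merged regions met the rule. Bone marrow-derived macrophages (BMDMs) of wild-type mice aged 8 to 12 weeks, C57BL/6 per the study's methods, had been grown for 6 days in L929 supernatant as a source of macrophage colony-stimulating factor. The control cells received vehicle, and the others were treated for 1 h with 20 ng/ml of IL-4 before fixation with DSG and formaldehyde. Each factor had 1 control sample and 1 IL-4 sample, with no replicates, so no test was made. Every interval below is a 95% interval that covers counting error over regions only.

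C/EBPα and IRF8 are factors that specify the myeloid lineage and occupy macrophage enhancers before a signal arrives. JUNB is a bZIP protein that pairs with FOS, ATF or BATF family members to form AP-1, whose classical site is TGACTCA, or TGAGTCA on the other strand. AP-1 acts downstream of MAP kinases and, in macrophages, shares many enhancers with PU.1 and C/EBP proteins. IL-4 signals through the transcription factor STAT6, which binds a site of the form TTC, 3 or 4 bases, GAA.

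Sequences of the members with the highest JUNB control score show what the sites look like. Each of the following is the 200 bp around the centre of the JUNB control peak, in mm10 coordinates, with an AP-1 site in capitals. The first 3 hold 1 site each, and the window at Hgf, the single promoter among the 10 highest-scoring members, holds none.
H2afy3 chr15:62416825-62417024 (+): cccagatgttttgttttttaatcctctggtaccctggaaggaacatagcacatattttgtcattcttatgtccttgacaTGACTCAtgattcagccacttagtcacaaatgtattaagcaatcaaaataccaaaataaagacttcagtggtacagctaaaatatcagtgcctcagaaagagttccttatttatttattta
Col25a1 chr3:130359953-130360152 (+): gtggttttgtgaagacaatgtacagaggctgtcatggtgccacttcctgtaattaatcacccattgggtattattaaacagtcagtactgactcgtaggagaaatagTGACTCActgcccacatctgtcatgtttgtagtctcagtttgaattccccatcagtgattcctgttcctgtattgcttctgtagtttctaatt
Tmprss13 chr9:45300581-45300780 (+): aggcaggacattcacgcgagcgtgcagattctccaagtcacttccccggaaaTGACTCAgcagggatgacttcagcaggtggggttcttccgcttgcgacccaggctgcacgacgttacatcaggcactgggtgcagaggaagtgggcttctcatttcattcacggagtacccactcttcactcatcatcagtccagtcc
Hgf chr5:16552671-16552870 (+): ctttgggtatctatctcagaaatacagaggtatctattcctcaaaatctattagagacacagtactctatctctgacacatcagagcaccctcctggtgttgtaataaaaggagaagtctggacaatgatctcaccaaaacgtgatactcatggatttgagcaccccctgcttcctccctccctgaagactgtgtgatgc

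The next sequences are the AP-1 site nearest to the JUNB centre with 15 bases on either side, at genes that had 3 members each. Map4k3 held the highest-scoring member of these genes, Runx1 is a regulator of blood cell development, and at D330050G23Rik and Rap2b all 3 members had a site.
Map4k3 chr17:80772716-80772752 (+): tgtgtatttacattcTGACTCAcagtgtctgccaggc
Runx1 chr16:92620917-92620953 (+): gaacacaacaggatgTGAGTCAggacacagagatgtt
D330050G23Rik chr2:116922876-116922912 (+): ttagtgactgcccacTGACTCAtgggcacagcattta
D330050G23Rik chr2:116972278-116972314 (+): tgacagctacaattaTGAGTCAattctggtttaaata
D330050G23Rik chr2:116989493-116989529 (+): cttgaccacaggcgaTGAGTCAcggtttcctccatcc
Rap2b chr3:61295036-61295072 (+): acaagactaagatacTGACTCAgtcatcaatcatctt
Rap2b chr3:61302395-61302431 (+): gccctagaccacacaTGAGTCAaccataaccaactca
Rap2b chr3:61344323-61344359 (+): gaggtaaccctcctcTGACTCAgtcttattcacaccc

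Of the 2263 regions with JUNB in control and with C/EBPα and IRF8 in both conditions, 56.1% (54.1 to 58.2) had no JUNB peak after IL-4. The other 993 kept it. In all merged regions with a JUNB control peak, the background was 63.7%, and in those outside this set 1225 of 1652 regions, or 74.2% (72.0 to 76.2), lost JUNB. These shares were fixed by the rule and are given as a description. The remaining regions had a median JUNB control score of 7.13, against 8.37 in the 2263. The whole JUNB list shrank from 3940 to 2325 peaks and its median score went from 7.88 to 6.21. Sequencing depth was unknown and libraries had been made with either of a pair of kits, so a difference between the JUNB libraries and an effect of IL-4 cannot be told apart. With the control and IL-4 lists of each factor cut to the same number of highest-scoring peaks, 651 regions met the rule and 45.8% of JUNB regions were lost.

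The peak score was read as −log10 of the caller's p-value or q-value, which is inferred from its values, and a region's score is that of its highest peak. JUNB control scores at the members ran from 1.76 to 27.38, with a median of 7.0 (6.79 to 7.29). The middle of this range, from the lower to the upper quartile, was 5.36 to 9.90. Regions that kept JUNB had a median control score of 11.27 (10.6 to 11.9), which went to 7.18 after IL-4, a median log2 ratio of -0.56. Their score was lower after IL-4 in 726 of 993 regions, or 73.1%. Lower JUNB scores after IL-4 were thus also seen where the peak stayed. A control score of at least 10 was found in 313 members (24.6%) and in 571 kept regions (57.5%). Only 21 members (1.65%) scored at least 20, against 157 kept regions (15.8%).

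At the edge of the rule, 114 members had a JUNB control score under 4, and the lowest JUNB IL-4 score among kept regions was 2.17. The lowest C/EBPα scores among members were 2.53 in control and 2.46 after IL-4, and the lowest IRF8 scores were 1.68 and 1.82. Just outside the rule, 122 regions that lost JUNB lacked only the C/EBPα peak after IL-4 and 74 lacked only the IRF8 peak after IL-4. Another 82 lacked only the C/EBPα control peak and 80 only the IRF8 control peak. A JUNB IL-4 peak lay within 250 bp of 4 members, within 1000 bp of 17 and within 10000 bp of 134 (10.6%). The median distance to the nearest one was 112196 bp. These distances are a description, since the JUNB IL-4 list held only 2325 peaks and the rule left out regions with one. No distances for other regions are set beside them.

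An AP-1 site stood within 200 bp of sequence at 472 of the 1270 members, or 37.2% (34.6 to 39.9). The share was 47.8% (44.7 to 50.9) where JUNB was kept and 47.9% (46.4 to 49.5) in all 3915 regions with a JUNB control peak. It was 10.9% in all merged regions, where the window lay around the region centre and most regions had no JUNB control peak. Members with 2 or more sites made up 4.09%, and kept regions with 2 or more 8.86%. The CRE site TGACGTCA, which bZIP dimers with ATF proteins also bind, was found at 3 members. Intervals of members and kept regions overlapped for the sites of the other factors. The C/EBP site TTGCNNAA was at 23.9% of members (21.7 to 26.4) and 20.4% of kept regions (18.1 to 23.1). The PU.1 site GAGGAAGT was at 13.4% and 10.9%, the ETS-IRF composite GGAANNGAA at 16.5% and 14.9%, and the RUNX site TGTGGTT at 13.3% and 11.7%. The interferon response form GAAANNGAA was at 127 members and 100 kept regions (10.1%). In all merged regions the shares were 18.4% for C/EBP, 10.6% for PU.1, 16.5% for ETS-IRF, 13.4% for the interferon response form and 8.21% for RUNX. Both strands were searched, and a base may belong to matches of several motifs.

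**Figure D1:**
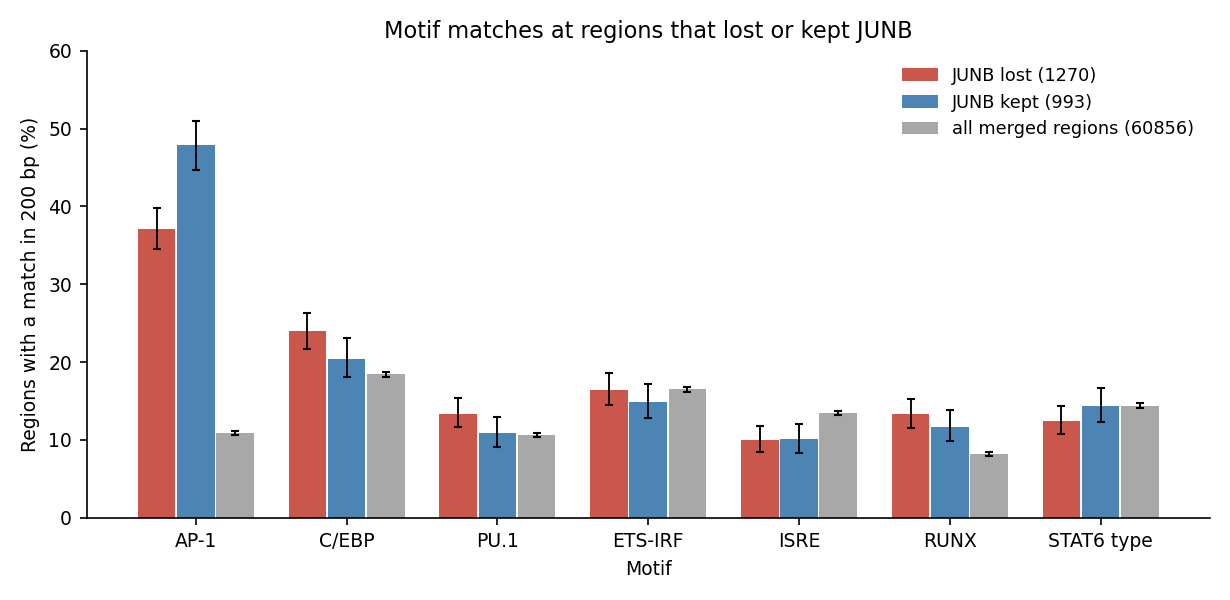
Share of regions (%) with a motif match in 200 bp, for members, for regions that kept JUNB and for all merged regions, with 95% Wilson intervals. Windows lay around the JUNB control peak centre, or around the region centre for all merged regions. AP-1 has the widest gap, at 37.2% of members, 47.8% of kept regions and 10.9% of all merged regions.

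The STAT6-type site was at 12.4% of members (10.7 to 14.4), 14.4% of kept regions and 14.4% of all merged regions. Around the C/EBPα centre, where regions with no JUNB control peak can be measured too, it was at 12.7% of members, 13.7% of kept regions and 15.1% of the 8182 regions with C/EBPα and IRF8 but no JUNB. It was at 30.5% (26.0 to 35.3) of the 374 regions that gained JUNB. Around the same centre, AP-1 was at 31.2% of members (28.7 to 33.8), 42.1% of kept regions, 20.6% of gained regions and 8.25% of regions without JUNB. The intervals of members and of gained regions did not overlap for either site.

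Some kept regions with very high JUNB scores lay on tandem repeats. Regions whose JUNB peak was on a simple, satellite or low-complexity repeat, or on the mitochondrial chromosome, made up 7.05% of kept regions (70 of 993) and 0.866% of members (11 of 1270). Without them, the AP-1 share was 37.3% of members and 51.4% (48.1 to 54.6) of kept regions, and 57.7% of JUNB regions were lost.

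The share that lost JUNB was smaller at each higher quartile of its control score, which belongs to the contrast the rule used. Of the 2263 regions, 439 of 566 in the lowest quartile of the JUNB control score lost it (77.6%), 369 of 566 in the second (65.2%), 325 of 576 in the third (56.4%) and 137 of 555 in the highest (24.7%, 21.3 to 28.4). The AP-1 share of members over the same quartiles went from 26.9% to 35.0%, 42.5% and 63.5% (55.2 to 71.1). In kept regions it was 32.3%, 43.1%, 51.0% and 52.9%. In the top quartile, where 49 of the 418 kept regions were on the repeats named above, leaving those out gave 64.4% of members and 59.9% of kept regions. The lower AP-1 share of members was thus seen in the lower 3 quartiles and not in the highest, and within each quartile the intervals of members and kept regions overlapped. Regions with an AP-1 site lost JUNB in 49.8% of cases (472 of 947) and regions without one in 60.6% (798 of 1316), and their median JUNB control scores were 9.76 and 7.53.

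For all 3 factors, the intervals of the median score at members with and without an AP-1 site did not overlap. With a site, the median control score was 8.09 for JUNB (7.84 to 8.64), 19.0 for C/EBPα (16.1 to 21.0) and 18.3 for IRF8 (16.9 to 20.7). Without one, it was 6.73 for JUNB (6.44 to 6.79), 25.6 for C/EBPα (23.6 to 29.2) and 29.3 for IRF8 (26.9 to 32.3). JUNB was thus higher and the other factors lower at members with an AP-1 site. Among members in the top quartile of C/EBPα control score, 22.2% had an AP-1 site, against 42.0% in the lowest quartile. For IRF8 quartiles the share went from 48.9% to 42.2%, 34.2% and 22.2%. By C/EBPα quartile, the share of JUNB regions lost was 61.3% (57.2 to 65.2) in the lowest, 52.9% and 56.1% in the middle ones and 54.1% (49.9 to 58.1) in the highest. By IRF8 quartile, JUNB was lost at 323 of 567 regions in its lowest quartile and 297 of 565 (52.6%, 48.4 to 56.7) in its highest.

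The median C/EBPα and IRF8 scores of the members were close to their control values, while single members varied, with SDs of the log2 ratio of 0.56 for C/EBPα and 0.67 for IRF8. The rule required a peak of each factor in both conditions but not the size of its change. Median C/EBPα scores were 23.2 in control and 23.2 after IL-4, and the median log2 ratio was -0.01 (-0.03 to 0.03). For IRF8 the medians were 24.8 and 25.2, and the log2 ratio was 0.04 (0.00 to 0.07). Over all merged regions with both peaks, the IRF8 ratio had a median of 0.08. Where JUNB was kept, the medians were 0.07 for C/EBPα (0.05 to 0.11) and 0.10 for IRF8 (0.06 to 0.13), and where it was gained they were 0.21 (0.11 to 0.27) and 0.24 (0.16 to 0.32). For both factors the median was highest where JUNB was gained. With scores divided by the median of their list, the IRF8 ratio of members was 0.14 (0.11 to 0.17) and that of C/EBPα stayed at -0.01.

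**Figure D2:**
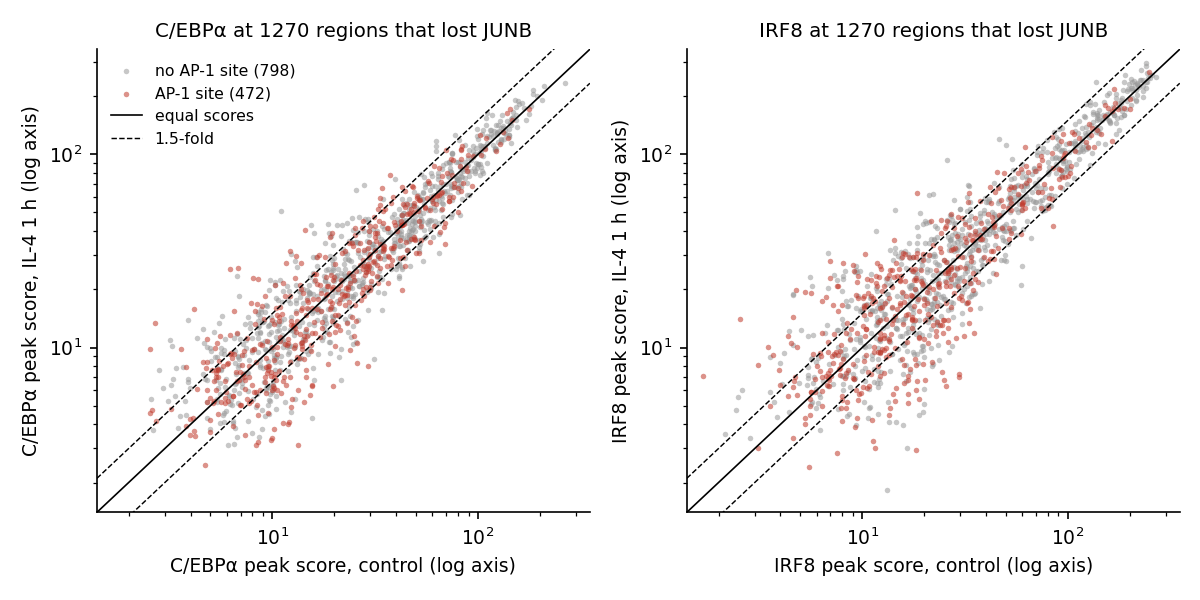
C/EBPα (left) and IRF8 (right) peak scores of the 1270 members in control (x axis) and after IL-4 (y axis), both on log axes, coloured by the presence of an AP-1 site. Points spread around the line of equal scores, and the dashed lines mark a 1.5-fold change.

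A score ratio of at least 1.5-fold was used to count changes. C/EBPα was higher after IL-4 by this measure at 166 members (13.1%) and lower at 157 (12.4%), beside 17.7% and 17.8% of all regions with both C/EBPα peaks. IRF8 was higher at 218 members (17.2%) and lower at 186 (14.6%), beside 23.5% and 17.4%. The members' shares were below the background in each of these 4 counts. Shares of kept regions were below it in all 4 as well, so this was not particular to members. Lower scores were less frequent in kept regions than in members, at 9.26% for C/EBPα and 12.6% for IRF8. Higher scores were more frequent there, at 149 of 993 regions for C/EBPα and 209 for IRF8. Members also had higher control scores than regions without JUNB, with medians of 23.2 against 17.0 for C/EBPα and 24.8 against 17.3 for IRF8, and the part of this in the counts was not tested. Both factors were within 1.5-fold at 659 members (51.9%), both lower at 38 (2.99%) and both higher at 43 (3.39%). In kept regions these shares were 51.0%, 1.41% and 4.63%. Both were higher in 14.2% of regions that gained JUNB and in 6.07% of regions without JUNB.

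In the top quartile of JUNB control score, the members' median log2 ratio was -0.12 (-0.22 to 0.04) for C/EBPα and -0.10 (-0.22 to 0.11) for IRF8. In kept regions of that quartile they were 0.09 and 0.11. The members' intervals include 0 and are wide, since only 137 regions fall there. IRF8 was lower by 1.5-fold at 29 of these members, or 21.2%, near the 17.4% of all regions with both IRF8 peaks.

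**Figure D3:**
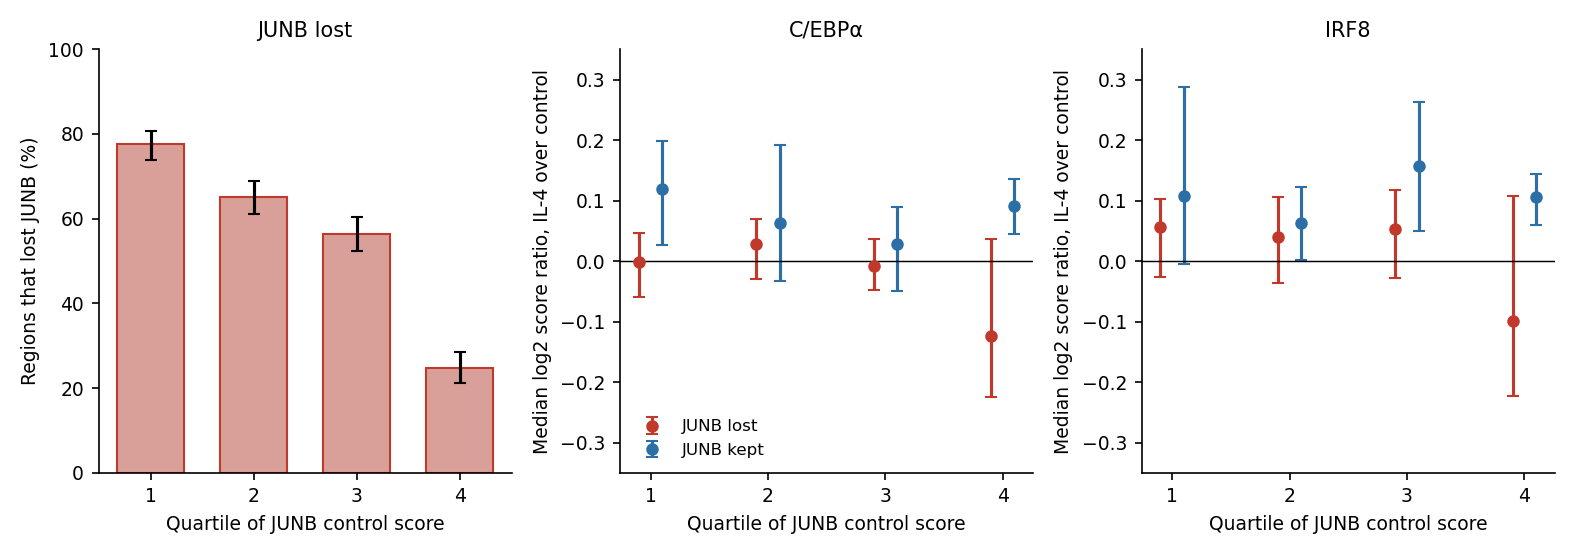
Share of regions that lost JUNB (left, %) and median log2 score ratio of C/EBPα (middle) and IRF8 (right), IL-4 over control, by quartile of the JUNB control score, with 95% intervals. The lost share goes from 77.6% to 24.7%, and the medians of members in the top quartile are -0.12 and -0.10, with intervals that include 0.

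The 10 members with the highest JUNB control score ranged from 22.59 to 27.38, and 7 of them held an AP-1 site. The share was 63.5% of members in the top quartile of that score and 37.2% of all members. It was 47.9% of all regions with a JUNB control peak and 10.9% of all merged regions. IRF8 was lower after IL-4 at 7 of the 10, and by 1.5-fold or more at 5. This call was met by 21.2% of members in the top quartile, 14.6% of all members and 17.4% of all regions with both IRF8 peaks. The first lay 197473 bp upstream of H2afy3 (chr15:62416792-62417057). There JUNB scored 27.38 in control, C/EBPα went from 34.67 to 44.05, and IRF8 from 9.27 to 3.87. In intron 2 of 35 of Col25a1, a collagen gene (chr3:130359931-130360174), JUNB scored 24.40, C/EBPα went from 2.60 to 4.77 and IRF8 from 16.68 to 5.76. IRF8 was thus lower by more than 1.5-fold at both sites and C/EBPα was higher. At Col25a1 the C/EBPα control score was near the lowest of all members, 2.53.

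In intron 1 of 9 of Ergic1, which encodes a protein of the ER-Golgi intermediate compartment (chr17:26605616-26606003), JUNB scored 24.47. Here both other factors had lower scores after IL-4, with C/EBPα going from 4.68 to 2.46 and IRF8 from 34.66 to 19.88. The C/EBPα score of 2.46 was the lowest of all members after IL-4. In intron 4 of 19 of B230120H23Rik (chr2:72366551-72366827), C/EBPα was the highest of the 10 and steady at 147.12 and 150.96, JUNB was 23.72, and IRF8 went from 26.99 to 16.23. The member in intron 1 of 20 of Arhgef7, which encodes an exchange factor for RAC and CDC42 GTPases (chr8:11767464-11767814), had a JUNB score of 25.75. C/EBPα there went from 127.36 to 113.66 and IRF8 from 82.54 to 67.26, both within 1.5-fold.

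The opposite direction was seen 18420 bp upstream of Tmprss13, a serine protease gene (chr9:45300514-45300847). IRF8 went from 9.40 to 21.82 and C/EBPα from 12.91 to 10.25, JUNB scored 24.40 in control, and a JUNB IL-4 peak lay only 1023 bp away. In intron 2 of 35 of Xdh, the xanthine dehydrogenase gene (chr17:73941883-73942125), C/EBPα went from 21.76 to 43.14, IRF8 from 10.98 to 11.83, and JUNB was 23.71. At the promoter of Hgf, hepatocyte growth factor, 780 bp upstream of its start (chr5:16552645-16552895), JUNB scored 23.25, C/EBPα went from 46.04 to 59.02 and IRF8 from 48.38 to 40.75. Members near Psma1, a proteasome subunit gene, and Dot1l, the histone H3 lysine methyltransferase gene, made up the rest, with JUNB scores of 24.71 and 22.59.

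The lowest and highest score ratios of the other factors were seen at members outside these 10. The lowest C/EBPα ratio lay 26250 bp upstream of Il7r, the interleukin 7 receptor gene, where C/EBPα went from 13.27 to 3.11, at a member with 3 AP-1 sites. The highest lay near Foxs1, from 2.69 to 13.47. The lowest IRF8 ratio lay 2599 bp upstream of Il2, the interleukin 2 gene, from 13.13 to 1.82, and the highest near Adipoq, the adiponectin gene, from 2.54 to 14.10. In intron 1 of Atp6v0d2, which encodes a subunit of the vacuolar proton pump, C/EBPα went from 6.20 to 25.45 and IRF8 from 1.68 to 7.15, while JUNB went from 10.28 to no peak. This region alone was among the 4 highest ratios of each factor. IRF8 at 1.68 in control and at 1.82 after IL-4 were the lowest of all members. C/EBPα at 2.69 and 3.11 and IRF8 at 2.54 were near the lowest too, so these ratios rest on weak peaks.

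Most members were far from promoters. Intergenic annotation covered 620 (48.8%), first introns 239 (18.8%) and later introns 344 (27.1%). Promoters in the authors' annotation held 33 members, or 2.60% (1.86 to 3.63). These lay from 961 bp upstream to 23 bp downstream of a transcription start site (TSS). Within 1000 bp of a TSS, either way, were 45 members. The promoter share was 1.51% (0.918 to 2.48) where JUNB was kept, 4.01% where it was gained and 6.18% (5.68 to 6.73) where C/EBPα and IRF8 stood without JUNB. The median distance to the nearest TSS was 24971.5 bp (22457 to 27511), against 29656 bp (26203 to 32798) in kept regions and 20616.5 bp in those without JUNB. Within 10000 bp of a TSS were 338 members (26.6%), and 182 (14.3%) were more than 100000 bp away. Members lay on chromosomes 1 to 19 and X, with the most on 1 (115) and 2 (111).

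**Figure D4:**
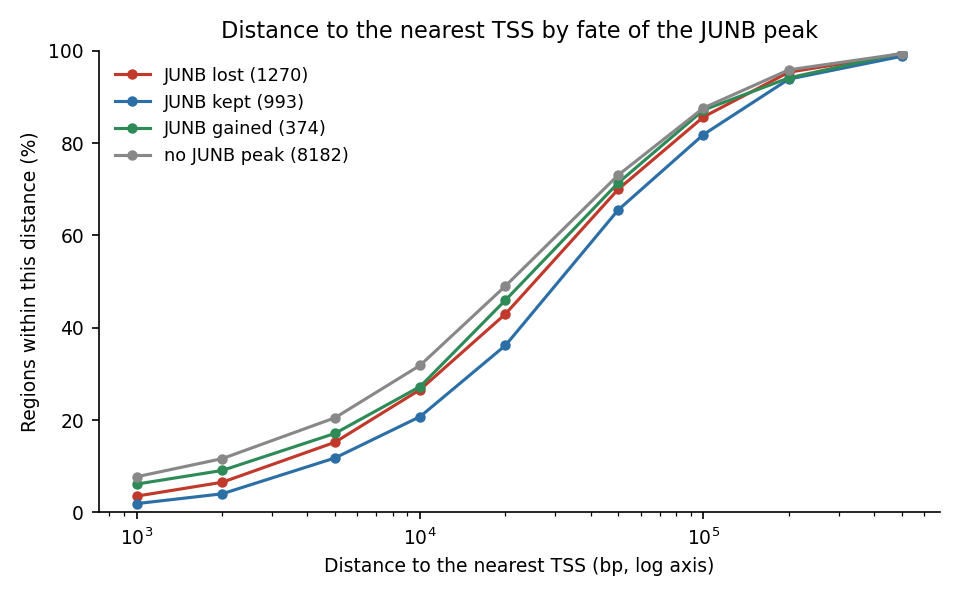
Cumulative share of regions (%) by distance to the nearest TSS (bp, log axis) for members and for regions that kept, gained or never had JUNB. At 10000 bp members reach 26.6%, between kept regions at 20.8% and regions without JUNB at 31.9%.

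The annotation classes were alike in JUNB score. The median was 7.07 at intergenic members, 6.73 in first introns, 7.33 in later introns and 6.79 at promoters. AP-1 sites were at 37.1%, 34.7%, 40.7% and 30.3% of these. The JUNB and C/EBPα peak centres were a median of 43 bp apart (40 to 47) and the JUNB and IRF8 centres 44 bp (40 to 47). Kept regions had 35 bp (32 to 39) and 37 bp (33 to 39), so the centres were slightly closer there.

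Among the 33 promoter members, IRF8 was higher after IL-4 at 24 and lower at 9, with 6 higher and 3 lower by 1.5-fold. Over all regions with both IRF8 peaks these calls made up 23.5% and 17.4%, so neither count was above the background. C/EBPα was higher at 16 and lower at 17. At Samsn1, an adaptor of haematopoietic cells, the JUNB peak 44 bp upstream of the start scored 9.02, C/EBPα went from 11.81 to 10.06 and IRF8 from 20.28 to 45.17. At Ccl3, a chemokine, JUNB scored 8.16, C/EBPα went from 59.97 to 68.52 and IRF8 from 15.36 to 27.04. At Ccr1, a chemokine receptor that binds CCL3, JUNB scored 5.60, with C/EBPα at 23.42 and 23.43 and IRF8 at 8.04 and 6.01. Cd53, a tetraspanin of leukocytes, had the highest IRF8 score of the 33 promoters, at 203.12 and 180.06, beside C/EBPα at 8.91 and 10.49 and JUNB at 6.30. The promoter of Nlrp1b, an inflammasome sensor, had JUNB at 7.15, C/EBPα at 21.20 and 14.58, and IRF8 at 54.94 and 75.48. At Creb5, a bZIP factor, JUNB scored 4.60 and C/EBPα went from 4.18 to 15.84, and at Hpgds, the haematopoietic prostaglandin D synthase, C/EBPα went from 12.31 to 30.40. These last members had low JUNB scores.

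Members were nearest to 1078 genes. A single member was found at 922 genes, 2 at 129, and 3 or more at 27, which together took 90 members. Of these 27 genes, 13 had no region that kept JUNB, beside 99 of the 156 genes with 2 or more members. Kept regions had 17 genes with 3 or more. The genes were picked by their lost regions, so these counts are a description. Lost counts given below for single genes are out of regions with a JUNB control peak, where 56.1% were lost in the whole set. The 25 described here had the most members, with ties ordered by JUNB score. Their 84 members had a median JUNB control score of 6.83 and an AP-1 site in 31, and both other factors were within 1.5-fold in 45. A nearest gene is an assignment by distance, and 22 of the 84 were more than 100000 bp from its start. With members within 100000 bp alone, 17 genes had 3 or more, and with lists of equal length 5 genes did.

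**Figure D5:**
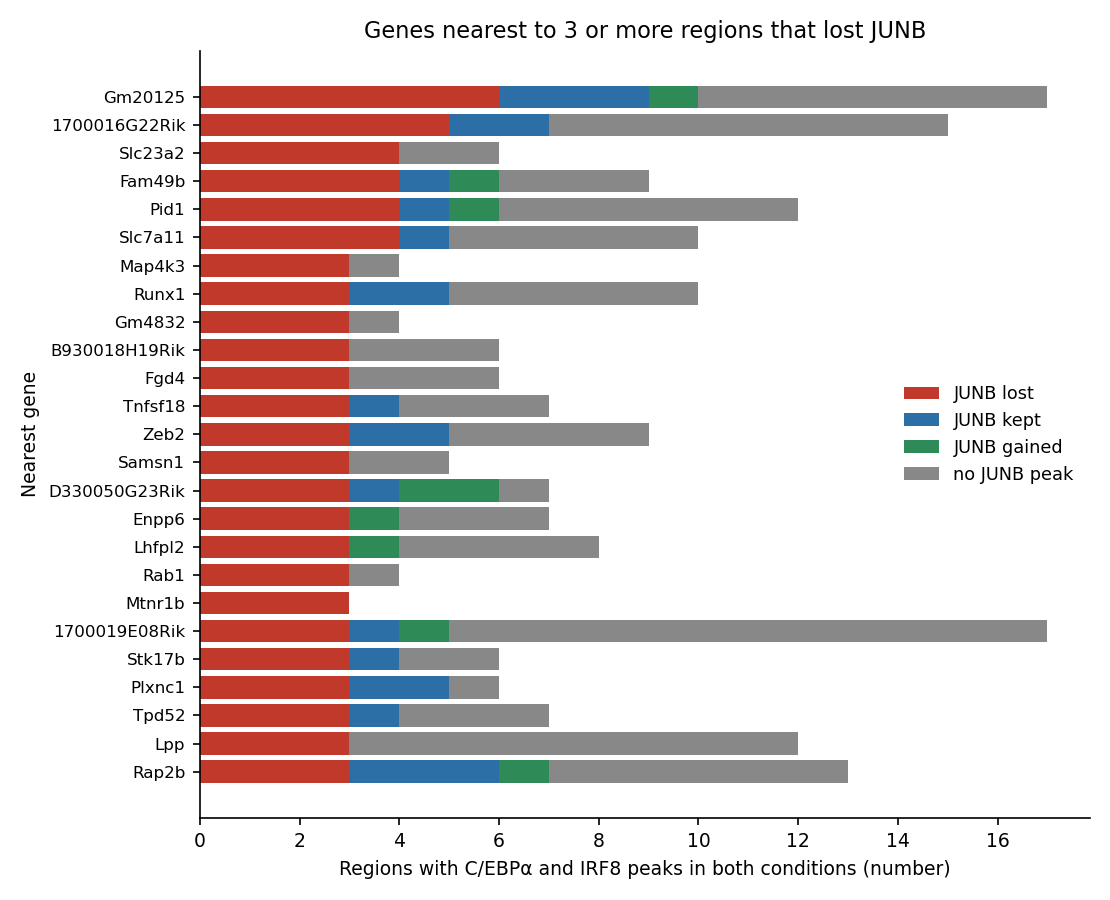
Number of regions with C/EBPα and IRF8 peaks in both conditions at the 25 genes, split by whether JUNB was lost, kept, gained or never present. Gm20125 has 6 lost of 17 regions, and Slc23a2 and Mtnr1b are among those where no region kept JUNB.

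Gm20125, a predicted gene, had the most members, 6, with 3 kept regions. They spread from 458556 bp on one side of its start to 287407 bp on the other, and JUNB control scores ran from 4.95 to 12.58. C/EBPα had a higher score after IL-4 at all 6, by 1.5-fold or more at 2, where 17.7% of all regions with both C/EBPα peaks met that call, for example from 19.57 to 39.03 at chr10:17347911-17348109. IRF8 went both ways, from 16.53 to 3.02 at chr10:16637141-16637312 and from 15.43 to 23.54 at the former site. At 1700016G22Rik, with 5 members and 2 kept regions, C/EBPα was lower at 3 and JUNB scored 4.53 to 9.46. One of them, at chr13:5845762-5845930, had a JUNB IL-4 peak 300 bp away.

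Slc23a2, which encodes a sodium-dependent vitamin C transporter, lost JUNB at 4 of 4 regions. JUNB control scores were 10.24, 10.18, 6.79 and 6.79. C/EBPα went from 99.12 to 85.36, from 60.76 to 61.62, from 11.39 to 13.97 and from 55.79 to 37.79 at these in turn. IRF8 went from 76.08 to 107.62, from 36.46 to 33.70, from 79.80 to 91.63 and from 35.81 to 24.96. None of the 8 changes reached 1.5-fold. None of these members had an AP-1 site.

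Fam49b, whose product binds RAC1, also had 4 members without an AP-1 site, and 1 kept region. All 4 lay in introns, but the member 40259 bp upstream of the gene's start was in an intron of another transcript. JUNB scored 6.79, 9.36, 7.84 and 9.94. The other factors were steady, with C/EBPα at 123.34 and 130.24, and IRF8 at 17.31 and 20.98, at chr15:64040864-64041084. The member 1255 bp inside the gene had C/EBPα at 52.66 and 46.09 and IRF8 at 61.01 and 68.41.

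Slc7a11, the cystine-glutamate antiporter subunit xCT, had 4 members, none with an AP-1 site, and 1 kept region. In an intron 5247 bp from its start, JUNB scored 9.13, C/EBPα was 17.89 and 17.78, and IRF8 went from 2.50 to 5.52. A pair of members lay within 1 kb of each other, 37483 and 36688 bp from the start, with JUNB scores of 4.75 and 5.01. IRF8 was 100.86 and 91.54 at the latter and 18.84 and 13.83 at the former. At Pid1, which encodes a phosphotyrosine-binding adaptor, 4 members upstream of the gene had JUNB scores of 4.92 to 9.96. IRF8 was higher after IL-4 at all 4, and one had IRF8 at 217.67 and 231.61.

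Genes for transcription factors and signalling proteins were among those with 3 members. At Runx1, JUNB scored 13.70, 7.52 and 8.54, and C/EBPα went from 11.58 to 18.45, from 7.46 to 9.93 and from 18.40 to 12.00. IRF8 stayed within 1.5-fold there, at 12.20 and 11.94, 25.10 and 28.44, and 46.49 and 41.13. Zeb2, a zinc-finger repressor expressed in macrophages, had 3 members. The nearest, 13197 bp upstream, had JUNB at 4.88, with C/EBPα going from 4.30 to 11.15 and IRF8 from 4.59 to 10.36. The others lay 163634 and 166336 bp upstream. The stronger of these had JUNB at 15.58, C/EBPα going from 54.61 to 36.79 and IRF8 from 11.45 to 6.61. The weaker had JUNB at 5.45, C/EBPα at 48.29 and 54.39, and IRF8 at 153.54 and 154.20. The 3 members of Zeb2 thus went in different directions. Runx1 and Zeb2 each kept JUNB at 2 other regions.

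Map4k3, a kinase of the JNK pathway, lost JUNB at 3 of 3 regions. The member 44607 bp upstream had the highest JUNB score of the 84, 18.95, with C/EBPα at 13.16 and 13.79 and IRF8 at 199.45 and 194.41. Samsn1 also lost it at 3 of 3, with JUNB scores of 11.66 and 5.15 beside the promoter peak, and C/EBPα at 153.27 and 175.92 at the strongest. At Tnfsf18, the GITR ligand gene, C/EBPα and IRF8 were each lower after IL-4 at all 3 members, by less than 1.5-fold except for C/EBPα from 9.66 to 6.21 and IRF8 from 77.46 to 51.56 at the member with the highest JUNB score, 14.61.

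Rap2b, which encodes a RAS-like GTPase, had the lowest C/EBPα ratios among these genes, and kept JUNB at 3 other regions. C/EBPα went from 84.85 to 70.70, from 14.19 to 5.24 and from 12.03 to 4.13 at its 3 members, all with an AP-1 site. IRF8 went from 100.98 to 114.33, from 44.86 to 23.95 and from 13.06 to 9.91, and JUNB scored 3.77, 3.74 and 8.44. Stk17b, a serine/threonine kinase gene, had IRF8 going from 17.10 to 7.74 and from 18.83 to 5.44 at a pair of its members, beside C/EBPα at 56.25 and 59.60 and at 4.99 and 4.22. At its remaining member IRF8 went the other way, from 26.72 to 48.62, with C/EBPα at 49.85 and 53.64. At Gm4832 IRF8 was higher at a pair of its members, from 28.00 to 58.19 and from 7.55 to 20.74.

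The other genes with 3 members had JUNB scores from 3.24 to 15.43. Enpp6, a choline phosphodiesterase gene, stood out by its IRF8 scores of 166.35, 159.09 and 96.45 in control and 163.43, 149.30 and 76.40 after IL-4. At D330050G23Rik the strongest member had JUNB at 15.43, IRF8 at 100.58 and 77.70, C/EBPα at 9.30 and 5.83, and a JUNB IL-4 peak 483 bp away. Fgd4 and Rab1 lost JUNB at all 3 of their regions with a JUNB control peak, with scores of 3.59 to 12.50 and 3.71 to 12.12. So did B930018H19Rik, Enpp6, Lhfpl2, Lpp and Mtnr1b, though Enpp6 and Lhfpl2 each had 1 other region that gained JUNB. Plxnc1, the semaphorin receptor gene, Tpd52 and 1700019E08Rik each kept JUNB elsewhere.

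Gene lists for macrophage functions were then read against the 56.1% of JUNB regions lost in the whole set. The lists were chosen with earlier results known, and counts this small set no list apart. The C/EBP, IRF and macrophage lineage factors had 21 members and 8 kept regions, at 15 of the 30 genes with a region bound by both other factors. Besides Runx1 and Zeb2, Klf2 had a member 3637 bp from its start with JUNB at 10.11 and steady strong peaks of C/EBPα (86.92 and 84.30) and IRF8 (101.70 and 103.04). Egr3 had 2 members, with JUNB at 6.44 and 5.78, C/EBPα going from 40.88 to 44.08 and from 22.44 to 31.44, and IRF8 from 52.96 to 74.20 and from 29.25 to 47.16. Etv6 had 2 with JUNB at 3.89 and 3.35, and IRF8 going from 131.09 to 101.75 and from 59.68 to 26.32. The AP-1 and ATF genes themselves had 0 members and 3 kept regions, over 9 genes with such a region, too few to set them apart.

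MAP kinase feedback regulators had 7 members and 1 kept region, at 5 of 13 genes. C/EBPα was lower after IL-4 at 6 of the 7, and by 1.5-fold at 4, where the background for this call was 17.8%. Dusp6, the ERK phosphatase, had 2 members. At chr10:99425346-99425589, 162236 bp downstream of the gene's start, JUNB scored 15.84, C/EBPα went from 81.53 to 48.60 and IRF8 from 13.45 to 4.10. At the other, 12291 bp upstream, JUNB was 8.74, C/EBPα went from 15.37 to 10.27 and IRF8 from 6.20 to 9.32. Spry2, an inhibitor of receptor tyrosine kinase signalling, had a member with 2 AP-1 sites and JUNB at 14.95, C/EBPα going from 8.48 to 4.49 and IRF8 from 22.47 to 18.07. Spred1, a RAS pathway inhibitor, was the exception, with C/EBPα at 69.68 and 90.09, and a JUNB IL-4 peak 233 bp from its member. Mapkapk2, a kinase activated by p38, had 2 members with JUNB at 5.73 and 5.60, C/EBPα going from 54.21 to 28.12 and from 49.24 to 40.22, and IRF8 at 226.97 and 241.64 and at 139.09 and 149.96.

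Cytokine and chemokine genes had 4 members and 7 kept regions. Upstream of Cxcl1, a neutrophil chemoattractant, a member at 9336 bp had JUNB at 13.90, C/EBPα going from 93.90 to 68.51 and IRF8 from 16.74 to 7.14. The other, at 29126 bp, had JUNB at 7.19, C/EBPα going from 74.61 to 57.82 and IRF8 from 21.87 to 15.77. Ccl2, a monocyte chemoattractant, had a member with JUNB at 10.69, C/EBPα at 131.92 and 140.70, and IRF8 going from 21.61 to 36.52. Cxcl1 thus had lower scores for both other factors at both members, and Ccl2 and Ccl3 higher ones, but no C/EBPα change reached 1.5-fold. Ccl2 also had 1 region that kept JUNB.

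The Toll-like receptor and NF-κB list had 6 members and 5 kept regions. Rel, an NF-κB subunit, had JUNB at 12.50, C/EBPα going from 7.78 to 12.59 and IRF8 from 14.38 to 30.96. Tnip1, an inhibitor of NF-κB signalling, had JUNB at 10.18, C/EBPα at 68.57 and 64.51, and IRF8 at 30.38 and 34.69. Nfkbiz had 2 distant members with JUNB at 6.73 and 3.24.

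Of the 12 genes that the study named as repressed by IL-4, 5 had a member each, and there were 6 kept regions at the list. That list came from the study's own results in these cells, so it is no independent guide. Cd14, the co-receptor for lipopolysaccharide, had its member at the promoter, with JUNB at 7.37, C/EBPα at 14.11 and 11.09, and IRF8 at 5.46 and 7.24. Nlrp3, the inflammasome sensor, had one 1167 bp upstream with JUNB at 7.05, C/EBPα at 47.72 and 45.52, and IRF8 at 72.65 and 74.86. Abca1, the cholesterol exporter, had one in intron 1 with JUNB at 7.91, C/EBPα at 4.22 and 3.48, and IRF8 going from 79.97 to 52.84. At Clec4d, a C-type lectin gene, JUNB was 6.53 and C/EBPα went from 25.61 to 10.67 while IRF8 went from 3.96 to 8.29. At Tlr2, JUNB was 4.09, C/EBPα 60.37 and 60.48, and IRF8 went from 41.05 to 28.15. Among the 3 genes named as activated, only Klf4 had a member, with JUNB at 6.01, C/EBPα at 111.07 and 114.26, and IRF8 at 15.76 and 19.20. This member lay 283606 bp upstream of the gene's start. At Klf4, 2 other regions gained JUNB and 0 kept it.

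The remaining lists had few members. Alternative activation genes had 2, at Mrc1, the mannose receptor, with JUNB at 8.82 and C/EBPα going from 9.64 to 19.74, and at Ahr, with JUNB at 4.65. The Ahr member lay 240229 bp from the gene's start. Adhesion and matrix genes had 6 members and 5 kept regions, led by the metalloproteinase genes Mmp19, with JUNB at 13.80, C/EBPα going from 10.40 to 16.05 and IRF8 at 26.26 and 25.41, and Mmp12, with JUNB at 10.27, C/EBPα at 25.54 and 35.35 and IRF8 at 83.22 and 61.27. Vcam1 was next, with JUNB at 5.56, C/EBPα going from 8.86 to 3.79 and IRF8 from 20.23 to 34.74. Lipid handling and scavenger receptor genes had 6 members and 9 kept regions. Abcg1, a sterol exporter, had JUNB at 11.23, C/EBPα going from 9.24 to 18.41 and IRF8 at 37.68 and 43.86. Plin2, a lipid droplet protein, had JUNB at 10.27, C/EBPα at 154.68 and 138.50, and IRF8 at 16.32 and 11.95. Fc receptor and C-type lectin genes had 4 members and 5 kept regions, led by Clec5a, with JUNB at 10.75, C/EBPα at 66.93 and 56.08 and IRF8 at 12.77 and 16.76.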

How the data were processed

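BMDM ChIP-seq with antibodies against C/EBPα, IRF8 and JUNB was analysed, with 1 control and 1 IL-4 sample each. The authors aligned reads to mm10 with BWA 0.7.10, called peaks per sample with MACS2 2.0.10 at a q-value limit of 0.01, removed ENCODE blacklist regions and annotated peaks with HOMER 4.2. SAMtools 0.1.19 is also named in the submitters' processing notes. No unit is stated for the deposited peak score, which was read as −log10 of the caller's p-value or q-value. It rises with depth, which is unknown, and is no coverage. The deposited distances to the TSS, in bp, were used as given, and a region took the annotation of its highest JUNB control peak.

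Peaks of the 6 lists were merged at an overlap of at least 1 bp, and no peak was left out. Motifs and sequences were read on both strands from 200 bp around the JUNB control centre in the GRCm38 genome, which is mm10 (0 peaks ran past a chromosome end). For all merged regions the window lay around the region centre. Shares given around the C/EBPα centre used the C/EBPα control peak. Shares carry Wilson 95% intervals and medians order-statistic 95% intervals. Fold calls used a score ratio of 1.5. No test was made, since no group had replicates.

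The named genes were the 25 nearest to the most members (at least 3, ties by summed JUNB control score), the 10 members with the highest JUNB control score, and genes of 11 lists with a member. The promoter members and the extremes of the score ratios were picked after their values were seen. Members, rule and lists were chosen with earlier results of these data known. Alternatives changed the overlap rule, a score minimum, rank matching, merging distance, chromosomes, score scaling, motif window and annotation. Scripts used pysam 0.24.0, matplotlib 3.10.9, pandas 2.3.3, numpy 2.4.6 and scipy 1.17.1 under Python 3.11.15 and were tested on simulated data.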

Additional observations from a re-analysis of the deposited data

How the results depend on the processing

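Over 75 recomputed values, 62 stayed within the interval of the value reported, or within 1.5 times it for counts, and 13 did not. Rank matching, which cuts the lists of a factor to the same number of highest-scoring peaks, gave 651 members, a lost share of 45.8%, a median JUNB control score of 9.66, an AP-1 share of 45.2% and 5 genes with 3 or more members. It keeps fewer JUNB control peaks by construction. Dropping scores under 5 gave a lost share of 60.6%, a median JUNB score of 8.44 and 17 genes with 3 or more members. Counting only members within 100000 bp of the TSS also left 17 such genes. Dividing scores by their list's median moved the median IRF8 log2 ratio from 0.04 to 0.14. The AP-1 share was 27.5% in a window of 100 bp and 42.5% in one of 400 bp. A TSS within 2000 bp, either way, was found at 6.54% of members, against 2.60% annotated promoter.

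The other alternatives were direct overlap with the JUNB control peak, merging within 250 bp, no JUNB IL-4 peak within 1000 bp, autosomes only, and, chosen after seeing the data, leaving out simple repeats and chromosome M. In these the number of members ran from 1253 to 1293. The mean score of a sample's peaks was tried for the score ratios, the CRE site was also counted for the AP-1 share, and the annotation of the C/EBPα control peak was tried for the annotation results. None of these alternatives changed a result they were run for beyond these limits. No paired analysis was possible because each factor and condition had 1 sample. Peak scores may depend on depth, which was unknown.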
